A study of Mus musculus with 19 samples.

Results

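The insulin-like growth factor (IGF) binding protein family was followed here through 9 mouse genes, found by exact match of their symbols among the 53558 genes of the expression files. They were the ligand Igf1, the receptors Igf1r and Igf2r, and the binding proteins Igfbp2, Igfbp3, Igfbp4, Igfbp5, Igfbp6 and Igfbp7. Enough reads were present in 7 of the 9 for a test, and Igfbp2 and Igfbp6 were left out of the tests for low counts. IGF ligands circulate and act locally, and signal through the tyrosine kinase IGF1R to the PI3K-AKT and MAPK pathways. The secreted binding proteins hold the ligands in the extracellular space, where they can prolong or block access to the receptor, and IGFBP7 is a distant relative with low affinity for IGF. In lung, IGF1 is made mostly by mesenchymal cells and macrophages, and IGFBP7 is also known as a secreted tumor suppressor and a product of endothelial cells.

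The libraries came from cells sorted out of microdissected lung tumors of mice of mixed strain background that carry R26LSL-tdTomato and H11LSL-Cas9, 17 weeks after tumors were started with lentivirus given into the trachea. All 19 libraries carried both alleles, and every virus delivered Cre together with guide RNAs, so that Cas9 cuts the targeted genes in the cells that Cre has reached. The control virus held the guides sgNeo1, sgNT and sgNeo2 (sgInert, 7 libraries), another held sgLkb1 (5 libraries), and the last held sgCebpa, sgCebpb and sgCebpd against 3 C/EBP transcription factors (sgCebpa/b/d, 7 libraries). The sort removed dead cells and cells with CD45, CD31, F4/80 or Ter119 on their surface, and the remainder is what the labels call neoplastic. The study set a tdTomato gate in other experiments, and whether one was set for these libraries is not given in the sources used here. Cas9 leaves a mixture of edited and unedited alleles, so that a library holds cells in which a target may still be intact. Males gave 4 of the 7 sgInert and 3 of the 7 sgCebpa/b/d libraries, and all other libraries, the 5 of sgLkb1 included, came from females. By their titles, 2 sgInert, 3 sgCebpa/b/d and 2 sgLkb1 libraries shared an animal with another library of the same group, so p-values measure the spread between libraries, which is in part spread between tumors of 1 animal. The titles of 5 other libraries (3 sgCebpa/b/d, 2 sgLkb1) gave no animal number, so whether these also shared animals is not known.

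Library totals lay between 2760722 and 9944131 estimated counts, with a median of 6028918. Sample titles fell into 3 series: 10 with an animal number starting with MT (3 sgInert, 4 sgCebpa/b/d, 3 sgLkb1), 4 starting with ZR (all sgInert) and 5 with no number (3 sgCebpa/b/d, 2 sgLkb1). The labels do not say what the series stand for, and the summed level of 9 macrophage markers moved with them: it was 168 to 1019 TPM (transcript abundance per length, as a share of the library) in the 5 unnumbered libraries and 5.42 to 248 TPM in the other 14, so that the ranges overlapped. Chil3 made up most of the highest sums (up to 972 TPM in sgCebpa/b/d and 408 TPM in sgLkb1), while Cd68 lay at 3.71 to 18.95 TPM over all groups. Stk11, the gene of LKB1, was lower in all 5 sgLkb1 than in all 7 sgInert libraries (log2 fold change -1.24, SE 0.17, adjusted p = 0.000107), at 7.55 to 15.3 against 17.5 to 27.8 TPM. Cebpa mRNA was higher, not lower, in the sgCebpa/b/d libraries (log2 fold change 0.73, SE 0.14, adjusted p = 0.00148), while Cebpb and Cebpd did not pass the test (1.16, adjusted p = 0.0524 and 0.20, adjusted p = 0.742). The last 2 depended on title series. In the MT libraries alone Cebpd was lower with sgCebpa/b/d (-0.78, adjusted p = 0.00369), Cebpb was -0.25 (adjusted p = 0.751) and Cebpa stayed higher (0.74, adjusted p = 0.00344). Both Cebpb and Cebpd were higher in unnumbered than in MT libraries (1.37, adjusted p = 0.00964 and 1.16, adjusted p = 4.82e-05). Cas9 cuts need not lower an mRNA, so these levels do not check the sgCebpa/b/d label, which is used here as given. Alveolar type II and epithelial markers (7 genes, surfactant proteins among them) summed to 29194 to 60718 TPM over all libraries.

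The promoters of 3 genes are shown because these carry the differences described below: Igfbp3 and Igfbp5, higher in both targeted groups, and Igfbp7, higher in the sgCebpa/b/d libraries. Each line gives bases upstream of the RefSeq transcription start, 5′ to 3′ on the gene's own strand, in the GRCm38.p6 build, with capitals marking a TATA-like element (TATANA or TATTTAA) or a GC box (GGGCGG) on either strand. RefSeq entries matched all 9 members, and the last 19 bases before the RefSeq start of Igfbp5 are not shown because GENCODE vM21 places them in its first exon.
Igfbp3, chr11:7213924-7214173, minus strand: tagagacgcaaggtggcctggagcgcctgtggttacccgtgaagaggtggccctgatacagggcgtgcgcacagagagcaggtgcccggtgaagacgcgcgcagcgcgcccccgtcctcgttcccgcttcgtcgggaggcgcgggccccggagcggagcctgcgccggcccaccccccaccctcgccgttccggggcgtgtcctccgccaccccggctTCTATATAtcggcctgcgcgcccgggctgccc
Igfbp5, chr1:72874885-72875115, minus strand: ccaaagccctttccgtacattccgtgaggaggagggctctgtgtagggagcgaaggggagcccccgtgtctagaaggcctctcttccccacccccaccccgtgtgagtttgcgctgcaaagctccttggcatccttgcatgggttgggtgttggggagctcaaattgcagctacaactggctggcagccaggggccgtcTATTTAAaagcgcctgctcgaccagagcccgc
Igfbp7, chr5:77408046-77408295, minus strand: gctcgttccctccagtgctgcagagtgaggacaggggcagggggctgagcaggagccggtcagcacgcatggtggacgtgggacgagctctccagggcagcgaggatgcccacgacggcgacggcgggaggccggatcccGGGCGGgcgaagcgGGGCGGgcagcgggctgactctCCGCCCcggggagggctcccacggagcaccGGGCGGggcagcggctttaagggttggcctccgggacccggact
The Igfbp3 window held 3 overlapping matches to TATANA that began 30 to 32 bases before the start, within TCTATATA, and Igfbp5 held TATTTAA 51 bases before it. Igfbp7 had no TATA-like match but 4 GC boxes, at 110, 96, 74 and 44 bases before the start, that at 74 on the opposite strand. G and C made up 73.2% of the 250 bases of Igfbp3, 58.8% of those of Igfbp5 and 74% of those of Igfbp7, with 32, 10 and 26 CpG dinucleotides. The C/EBP core TTGCNNAA was absent from the window of every member, which says only that these letters are not in these 250 bases. Among 32841 promoter windows of the same length, 9.57% held TTGCNNAA, 22.6% TATANA, 4.18% TATTTAA and 32.7% GGGCGG.

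In the GRCm38 annotation the 3 genes lie on chromosome 11 from 7206086 to 7213923 (Igfbp3), chromosome 1 from 72857932 to 72874884 (Igfbp5) and chromosome 5 from 77349240 to 77408041 (Igfbp7), all on the minus strand. Igfbp5 faces Igfbp2, on the plus strand of chromosome 1 from 72824503 to 72852474, with 5457 bases between their ends. Igfbp4 lies on chromosome 11 from 99041244 to 99054392 and Igfbp6 on chromosome 15 from 102144362 to 102149511. The ligand Igf1 is on chromosome 10 from 87858265 to 87937042, Igf1r on chromosome 7 from 67952827 to 68233668 and Igf2r on chromosome 17 from 12682406 to 12769664. The values below count reads over all exons of a gene and do not separate its transcripts.

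One binding protein dominated. Igfbp7 averaged 458 TPM over the 19 libraries and ranked 210 of 53558 genes by mean TPM, a per-length scale on which genes can be compared. Igf2r followed at 15.8, Igf1 at 15.2, Igfbp3 at 8.05, Igf1r at 7.49 and Igfbp5 at 4.56 TPM, and Igfbp4, Igfbp6 and Igfbp2 averaged 1.65, 1.29 and 0.44 TPM. Igfbp7 made up 93.8% to 99.2% of the summed TPM of the 6 binding proteins in any library. That sum was 311 ± 74.0 TPM in the sgInert libraries (SD, n = 7), 693 ± 92.0 TPM in the sgCebpa/b/d libraries (SD, n = 7) and 395 ± 50.6 TPM in the sgLkb1 libraries (SD, n = 5). The lowest sgCebpa/b/d library, at 602 TPM, lay above the highest library of either other group, at 454 TPM.

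**Figure D1:**
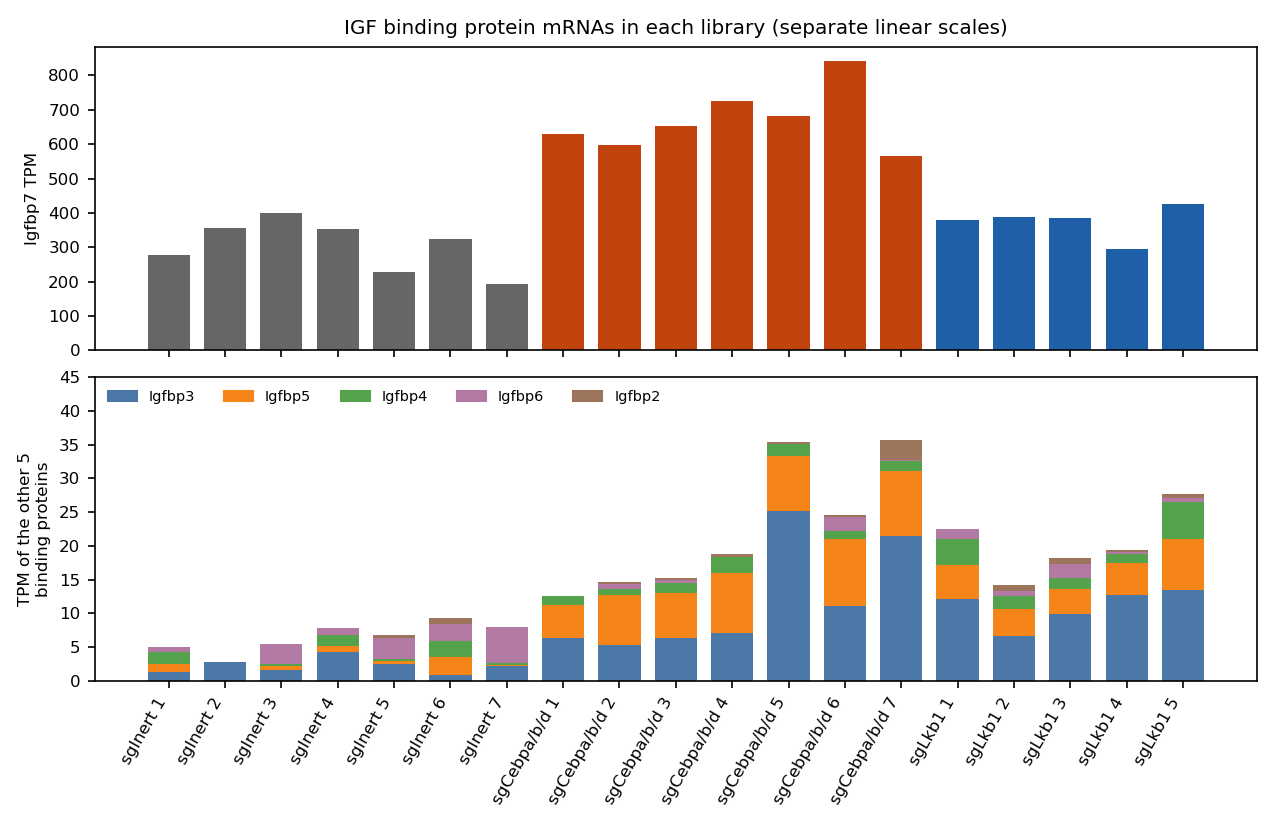
Bars give the level of Igfbp7 mRNA (top, TPM) and of the other 5 binding protein mRNAs stacked (bottom, TPM) in each of the 19 libraries, on separate linear scales that start at 0. Igfbp7 reaches 567 to 841 TPM in the sgCebpa/b/d libraries and 194 to 426 TPM elsewhere, and the lower stack is tallest in sgCebpa/b/d replicates 5 and 7, which are among the unnumbered titles.

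Relative to sgInert, 3 binding proteins were higher in the sgCebpa/b/d libraries (Igfbp3, Igfbp5, Igfbp7), and 2 of these, Igfbp3 and Igfbp5, were also higher in the sgLkb1 libraries together with Igf1. Igfbp7 separated the targeted groups from each other. Counts were tested with the edgeR quasi-likelihood test over 13986 genes, and a gene was called at a Benjamini-Hochberg adjusted p below 0.05. For sgCebpa/b/d against sgInert, 3 of 7 tested members were called higher and 0 lower, beside 4.73% and 5.36% of all genes, and DESeq2 added Igf1r to the higher calls. For sgLkb1 against sgInert the counts were 3 and 0, beside 2.81% and 2.97% of all genes. For sgCebpa/b/d against sgLkb1 they were 1 and 0, beside 2.83% and 3.12%. DESeq2 also called 0 members lower in each of them, and of members with negative fold changes 1, Igf2r between the targeted groups, had an unadjusted edgeR p below 0.05. The median log2 fold change of the 7 tested members was 1.25, 1.37 and 0.39 in these comparisons, and that of all tested genes 0.02, -0.01 and 0.03. The values 1.25 and 1.37 are those of Igfbp4, which had only 0 to 13 counts in the sgInert libraries. These medians leave out Igfbp6, which was not tested and whose mean count was highest in sgInert. The members were also chosen with earlier results known, so the medians do not measure a shift of the family. Both comparisons with sgInert use the same 7 control libraries, so their values are given side by side and not as separate evidence. In cells sorted in bulk, a change in the share of a cell type and a change in RNA per cell cannot be told apart.

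**Figure D2:**
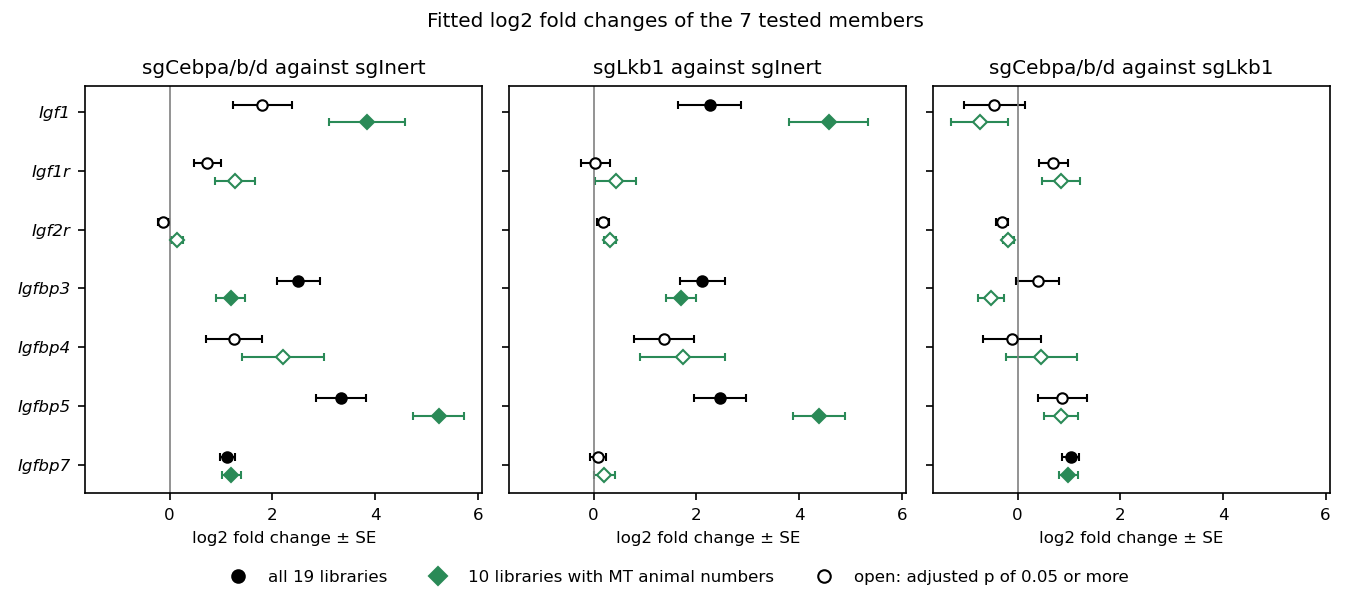
Fitted log2 fold changes (horizontal, with SE) of the 7 tested members in the comparisons between virus groups, from all 19 libraries (black circles) and from the 10 with MT animal numbers (green diamonds), filled where the adjusted p is below 0.05. Igfbp5 has the largest black value among members in both comparisons with sgInert (3.34 and 2.47), and Igfbp7 is the only filled member between the targeted groups (1.04 over all libraries).

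Igf1 encodes the growth factor itself. Its sgInert libraries were spread widely, from 0.02 TPM (1 count) through a median of 4.66 to 19.5 TPM (301 counts). The sgCebpa/b/d libraries ranged from 5.23 through 17.5 to 28.8 TPM, and the sgLkb1 libraries measured 8.55, 17.1, 29.5, 36.6 and 37.5 TPM. Every sgCebpa/b/d and sgLkb1 library lay above the sgInert median, but both groups overlapped the highest sgInert libraries. The log2 fold change was 2.26 for sgLkb1 (SE 0.61, adjusted p = 0.0305) and 1.80 for sgCebpa/b/d, which did not pass the test (SE 0.58, adjusted p = 0.0504). The sgLkb1 call was lost when sgInert replicate 1, 2 or 3 or sgLkb1 replicate 2, 3 or 5 was left out (highest adjusted p = 0.0862). The sgCebpa/b/d value passed without sgLkb1 replicate 4, sgInert replicate 4, 5 or 6, or sgCebpa/b/d replicate 2 (lowest adjusted p = 0.0114). The targeted groups did not separate from each other (log2 fold change -0.45, SE 0.59, adjusted p = 0.753).

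Of the receptors, Igf1r, the signaling receptor for IGF1, ranged in the sgInert libraries from 2.26 through a median of 6.58 to 7.84 TPM. In the sgCebpa/b/d libraries it ranged from 5.98 through 10.2 to 14.95 TPM, and in sgLkb1 it measured 3.40, 4.45, 7.67, 8.14 and 8.28 TPM. No comparison passed the test: the log2 fold change was 0.74 for sgCebpa/b/d against sgInert (SE 0.26, adjusted p = 0.0821), 0.04 for sgLkb1 against sgInert (SE 0.29, adjusted p = 0.969) and 0.70 between the targeted groups (SE 0.29, adjusted p = 0.185). In counts scaled to library size (CPM) all 7 sgCebpa/b/d libraries lay above all 5 of sgLkb1, although in TPM the groups overlapped. Igf2r, the mannose 6-phosphate receptor that takes up and degrades IGF2, was the steadiest member. Its sgInert libraries lay between 12.4 and 19.1 TPM, those of sgCebpa/b/d between 9.55 and 16.8 TPM, and those of sgLkb1 between 14.95 and 24.5 TPM. Its log2 fold changes were -0.12 (adjusted p = 0.554), 0.18 (adjusted p = 0.47) and -0.30 (adjusted p = 0.159) in the same order of comparisons.

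Igfbp3, the main carrier of IGF in serum, was higher in both targeted groups. It measured 0.82, 1.23, 1.61, 2.15, 2.52, 2.80 and 4.26 TPM in the sgInert libraries, from 8 to 33 counts. The sgCebpa/b/d libraries measured 5.28, 6.31, 6.36, 7.04, 11.1, 21.4 and 25.2 TPM (28 to 292 counts), and the sgLkb1 libraries 6.61, 9.92, 12.1, 12.8 and 13.5 TPM (66 to 182 counts). Neither targeted group overlapped sgInert, and within sgCebpa/b/d the 3 highest libraries were those with unnumbered titles, which were also its 3 males. The log2 fold change against sgInert was 2.50 for sgCebpa/b/d (SE 0.42, adjusted p = 0.000352) and 2.11 for sgLkb1 (SE 0.44, adjusted p = 0.00491). With title series as a covariate neither call held (1.48, adjusted p = 0.0545 and 1.41, adjusted p = 0.0789), and within the MT libraries the values were 1.19 and 1.70, both called. Between the targeted groups it was 0.39 (SE 0.42, adjusted p = 0.682), and in the MT libraries alone it was -0.51 (adjusted p = 0.298).

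Igfbp5, a carrier that also binds extracellular matrix, had the largest fold changes of the members against sgInert. The sgInert libraries measured 0, 0.15, 0.33, 0.64, 0.92, 1.21 and 2.71 TPM, from 0 to 59 counts, and a count of 0 allows for up to 3. The sgCebpa/b/d libraries measured 4.82, 6.73, 7.43, 8.21, 8.98, 9.64 and 9.87 TPM, from 50 to 315 counts. The sgLkb1 libraries measured 3.74, 4.00, 4.72, 5.07 and 7.48 TPM, from 88 to 213 counts. Every library of both targeted groups lay above every sgInert library. The log2 fold change was 3.34 for sgCebpa/b/d (SE 0.49, adjusted p = 8.99e-05) and 2.47 for sgLkb1 (SE 0.51, adjusted p = 0.00457). The targeted groups differed by 0.87 on the log2 scale, which did not pass the test (SE 0.47, adjusted p = 0.347), and their libraries overlapped.

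Igfbp7 followed another pattern: it was higher in sgCebpa/b/d than in both other groups. The sgInert libraries measured 194, 229, 278.7, 325, 353, 355 and 401 TPM, and the sgLkb1 libraries 294, 379, 385, 388 and 426 TPM. The sgCebpa/b/d libraries measured 567, 597, 630, 654, 682, 726 and 841 TPM and did not overlap either group. The log2 fold change was 1.13 against sgInert (SE 0.15, adjusted p = 1.93e-05) and 1.04 against sgLkb1 (SE 0.16, adjusted p = 0.000288). For sgLkb1 against sgInert it was 0.09 (SE 0.16, adjusted p = 0.837), with overlapping libraries. Group means were 305 ± 74.7 TPM for sgInert (SD, n = 7), 671 ± 91.4 TPM for sgCebpa/b/d (SD, n = 7) and 375 ± 48.6 TPM for sgLkb1 (SD, n = 5).

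The remaining binding proteins were scarce, and counting error limits what their values can show. Igfbp4, an inhibitory carrier cleaved by the protease PAPP-A, had 0 to 13 counts in the sgInert libraries, 9 to 31 with sgCebpa/b/d and 12 to 51 with sgLkb1. Its log2 fold changes were 1.25 for sgCebpa/b/d against sgInert (SE 0.55, adjusted p = 0.163), 1.37 for sgLkb1 against sgInert (SE 0.58, adjusted p = 0.197) and -0.11 between the targeted groups (SE 0.56, adjusted p = 0.946). Igfbp2 had 0 counts in 7 libraries and at most 13, in sgCebpa/b/d replicate 7. Igfbp6, which prefers IGF2 as its ligand, had 0 to 17 counts in the sgInert libraries, 0 to 8 with sgCebpa/b/d and 2 to 9 with sgLkb1, so that the groups overlapped. It leaned lower in the targeted groups, with mean TPM of 2.26, 0.47 and 1.10 in the same order. In log2 CPM 0 of 7 sgCebpa/b/d and 0 of 5 sgLkb1 libraries lay above the sgInert median. Neither Igfbp2 nor Igfbp6 passed the count filter, so the counts of members called higher or lower do not cover them.

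**Figure D3:**
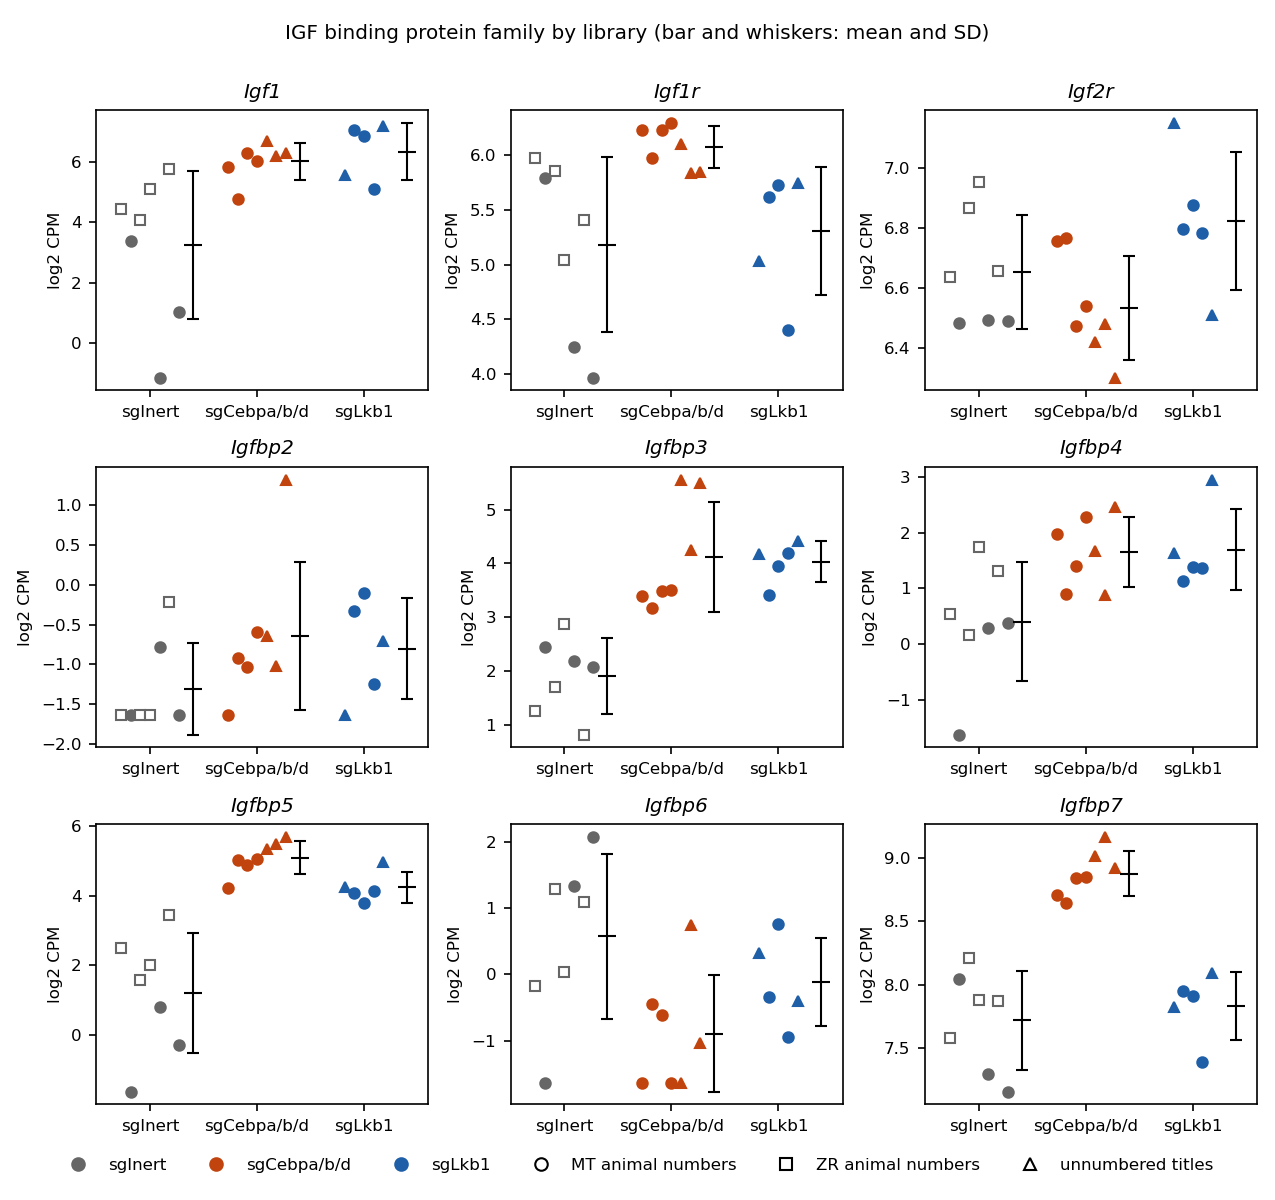
Each panel plots 1 member as log2 CPM (vertical) by virus group, with 1 point per library, the symbol giving the title series, and a bar with whiskers for the mean and SD of the group. Igfbp3, Igfbp5 and Igfbp7 show sgCebpa/b/d points wholly above the sgInert points, while Igf1 spreads from 0.02 to 19.5 TPM within sgInert, its MT libraries lowest.

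The title series moved with some members within groups. Among the sgInert libraries, Igf1 measured 0.02, 0.30 and 1.80 TPM in the 3 MT and 4.66, 6.04, 8.74 and 19.5 TPM in the 4 ZR libraries. In a model with group and series, 2 members were called higher in ZR than in MT and 0 lower, beside 1.14% and 0.565% of all genes: Igf1 (log2 fold change 3.02, SE 0.74, adjusted p = 0.0371) and Igfbp5 (2.95, SE 0.56, adjusted p = 0.0103). The Igf1 call was lost without sgInert replicate 4, 5, 6 or 7 or sgCebpa/b/d replicate 1, and the count without 1 library ran from 1 to 3. Between unnumbered and MT libraries 1 member, Igfbp3, was called higher and 0 lower (1.28, SE 0.32, adjusted p = 0.0268), beside 2.59% and 1.3% of all genes. This call was lost with sex as a covariate and without sgCebpa/b/d replicate 1, 2, 3, 4, 5 or 7. In sgCebpa/b/d the 3 unnumbered libraries were the males and the MT libraries the females, so series and sex cannot be told apart there. The difference between sgCebpa/b/d and sgLkb1 was not called as differing between unnumbered and MT libraries for any member (0 of 7 by edgeR, 0 by DESeq2, beside 0.0429% higher and 0.093% lower of all genes), and 1 member, Igfbp3, had an unadjusted p below 0.05 (difference of log2 fold changes 1.43, SE 0.57).

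Within the 10 MT libraries, where all 3 groups have samples, the contrasts with sgInert were larger for Igf1 and Igfbp5 and smaller for Igfbp3. For sgCebpa/b/d against sgInert 4 of 7 members were called higher and 0 lower (4.3% and 4.25% of 13674 genes): Igf1 (log2 fold change 3.84, SE 0.74, adjusted p = 0.00494), Igfbp3 (1.19, SE 0.28, adjusted p = 0.0178), Igfbp5 (5.24, SE 0.49, adjusted p = 2.16e-05) and Igfbp7 (1.201, SE 0.19, adjusted p = 0.00123). The sgInert side of these folds was small, with 1 to 56 counts for Igf1 and 0 to 11 for Igfbp5. By their titles, sgInert replicates 2 and 5 shared an animal, as did sgCebpa/b/d replicates 1, 3 and 4 and sgLkb1 replicates 2 and 3. The p-values within the MT libraries therefore rest on few animals per group and in part on spread between tumors of 1 animal. For sgLkb1 against sgInert 3 were called higher and 0 lower (3.61% and 3.36% of genes): Igf1 (4.58, adjusted p = 0.00187), Igfbp3 (1.70, adjusted p = 0.00248) and Igfbp5 (4.39, adjusted p = 0.00012). Between the targeted groups 1 was called higher, Igfbp7 (0.99, SE 0.19, adjusted p = 0.00524), and 0 lower, beside 3.68% and 3.3% of genes. No member was called lower by DESeq2 within the MT libraries either, and 0 with negative fold changes had an unadjusted edgeR p below 0.05. Without the 5 unnumbered libraries Igfbp3, Igfbp5 and Igfbp7 were still called in sgCebpa/b/d against sgInert, and of the 3 sgLkb1 calls Igfbp3 was (Igf1 2.25, adjusted p = 0.108, and Igfbp5 2.17, adjusted p = 0.0591). That subset, and both models with markers that follow, were chosen after the data were seen.

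Markers of fibroblasts, which carry none of the surface proteins named for exclusion, moved with the groups. The summed TPM of 7 markers ran from 3.93 through a median of 17.1 to 49.8 in sgInert, from 29.6 through 102 to 137 with sgCebpa/b/d and from 45.3 through 119 to 135 with sgLkb1. Within sgInert the MT libraries held 3.93 to 6.71 and the ZR libraries 17.1 to 49.8. Of 6 markers tested, 2 were called higher in each targeted group against sgInert, Dcn and Col3a1, and 0 lower. Among the defining markers, Dcn was at 0 in 1 library, Fbln1 in 2 and Lum in 5.

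With the fibroblast sum as a covariate, the Igf1 call for sgLkb1 against sgInert was lost (log2 fold change -0.14, adjusted p = 0.947), and for sgCebpa/b/d, where Igf1 had not been called, the value was -0.25 (adjusted p = 0.881). Igfbp5 was still called for sgCebpa/b/d (2.11, adjusted p = 0.0175) but not for sgLkb1 (1.05, adjusted p = 0.404). Igfbp3 had 2.38 (adjusted p = 0.0859) for sgCebpa/b/d and 1.99 (adjusted p = 0.22) for sgLkb1, where it had 2.50 and 2.11 without the covariate. Among all genes, too, fewer were called against sgInert with this covariate, as counted in the closing section on processing. Igfbp7 was called for sgCebpa/b/d against sgInert (0.76, adjusted p = 0.0485) and against sgLkb1 (1.08, adjusted p = 7.5e-05). The part of fibroblasts in these differences was not tested beyond the covariate. Single libraries, picked by their fibroblast sum, are given as a description only. The sgInert library with the most fibroblast signal, replicate 6 at 49.8 TPM, had 19.5 TPM of Igf1, 2.71 of Igfbp5, 0.82 of Igfbp3 and 325 of Igfbp7. The sgCebpa/b/d library with the least, replicate 2 at 29.6 TPM, had less Igf1 at 5.23 TPM and more Igfbp5, Igfbp3 and Igfbp7, at 7.43, 5.28 and 597 TPM.

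**Figure D4:**
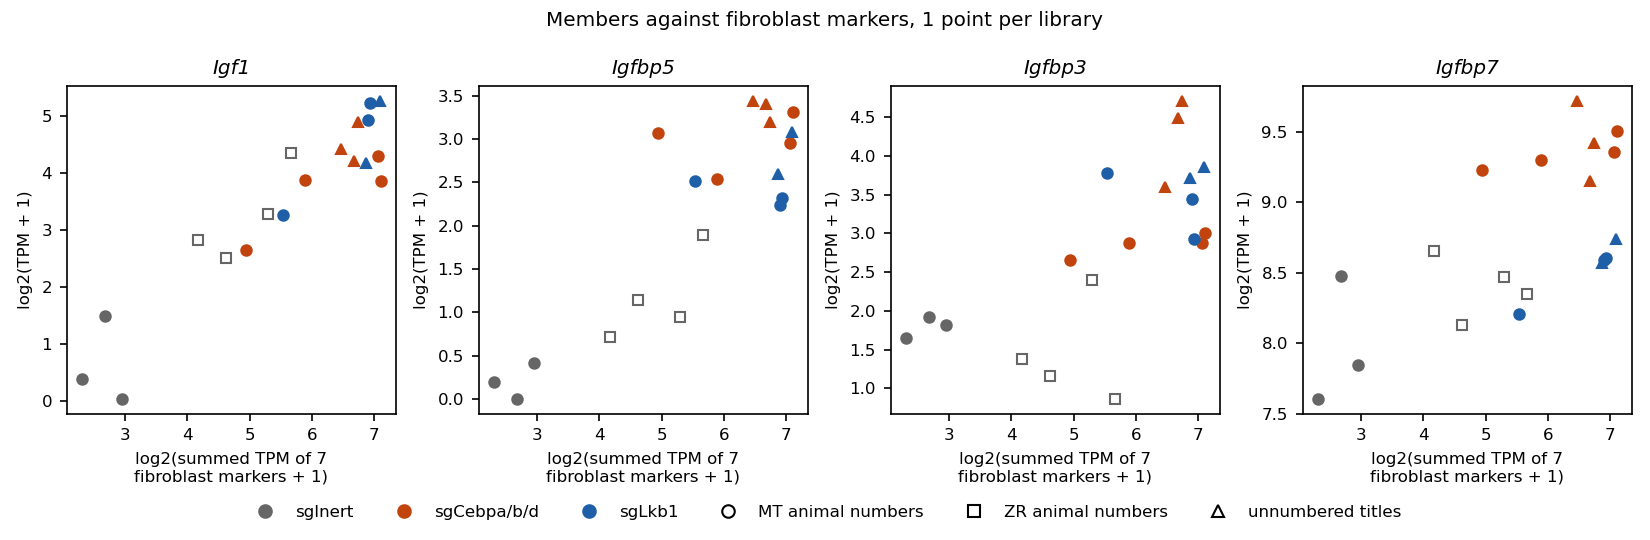
Each panel plots log2(TPM + 1) of 1 member (vertical) against log2(summed TPM of 7 fibroblast markers + 1) (horizontal), with 1 point per library colored by virus group and shaped by title series. Igf1 climbs with the marker sum across groups. Igfbp7 lies at 567 to 841 TPM in sgCebpa/b/d, where the marker sum runs from 29.6 to 137 TPM.

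Endothelial markers, which the CD31 gate should remove, summed over 7 genes to 7.6 to 19.1 TPM in sgInert libraries, 11.6 to 119 TPM with sgCebpa/b/d and 31.4 to 99.1 TPM with sgLkb1. Of these, 5 of 7 were called higher in sgCebpa/b/d and 1 in sgLkb1 against sgInert. In the MT libraries the sum was 11.6 to 25.6 TPM with sgCebpa/b/d and 11.9 to 19.1 TPM in sgInert. Igfbp7 measured 597 to 726 and 194 to 355 TPM in these libraries. In the unnumbered sgCebpa/b/d libraries the sum was 94.6 to 119 TPM and Igfbp7 567 to 841 TPM. The endothelial sum of every sgLkb1 library lay above that of every sgInert library. The part of endothelial cells in the Igfbp7 difference was not tested beyond a covariate. With the endothelial sum as a covariate Igfbp3, Igfbp5 and Igfbp7 were still called for sgCebpa/b/d against sgInert, and for sgLkb1 against sgInert 0 members passed by edgeR (Igf1 2.08, adjusted p = 0.15, Igfbp3 0.95, adjusted p = 0.238, Igfbp5 1.84, adjusted p = 0.108). This covariate also lowered the number of all genes called in both comparisons, as counted in the closing section on processing. No macrophage or leukocyte marker (6 and 1 tested) was called against sgInert, which does not show equal levels, because the sums differed by title series within groups. The macrophage sum was 714.5 to 1019 TPM in unnumbered and 5.42 to 11.5 TPM in MT sgCebpa/b/d libraries. In sgLkb1 it was 168 to 461 and 8.94 to 17.4 TPM. The leukocyte marker tested, Ptprc, had 3.78 (adjusted p = 0.0658) for sgCebpa/b/d and 3.17 (adjusted p = 0.189) for sgLkb1. The part of these cells was not tested. Smooth muscle and pericyte markers summed to 2.01 to 9.96, 4.55 to 14.9 and 12.3 to 27.3 TPM in sgInert, sgCebpa/b/d and sgLkb1, with 1 of 6 higher in sgLkb1, and mesothelial markers to 0 to 2.21, 0 to 2.51 and 5.02 to 14.4 TPM, with the 1 tested higher in sgLkb1. Their part in the members' differences was not tested. Of the 7 alveolar type II and epithelial markers 1 was lower in sgCebpa/b/d and 2 in sgLkb1 against sgInert.

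Around the family, 34 other genes of the IGF and insulin axis were listed and 22 could be tested. Against sgInert, 2 were higher and 4 lower in sgCebpa/b/d, beside 4.73% and 5.36% of all genes, and 16 were not called. For sgLkb1, 3 were higher and 2 lower, beside 2.81% and 2.97%, and 17 were not called. Between the targeted groups 1 was higher and 1 lower, beside 2.83% and 3.12%. The list's median log2 fold changes were 0.01, -0.10 and -0.11. The second ligand, Igf2, was called higher in both groups from very low levels: 0 to 6 counts in sgInert, then 2 to 95 counts for sgCebpa/b/d (log2 fold change 3.28, SE 0.74, adjusted p = 0.00515) and 7 to 80 for sgLkb1 (3.39, SE 0.77, adjusted p = 0.00951). Neither Igf2 call held in the MT libraries (1.71, adjusted p = 0.272 and 2.94, adjusted p = 0.0565), Igf2 was higher in unnumbered than in MT libraries (2.29, adjusted p = 0.0106), and the calls passed in 8 and 9 of 16 alternative settings. Stc1, a stanniocalcin whose protein can inhibit the PAPP-A proteases, lay at 0 to 1.41 TPM in sgInert, 0.72 to 4.12 TPM in sgCebpa/b/d and 11.5 to 26.4 TPM in sgLkb1. It was higher than sgInert in both groups (1.88, adjusted p = 0.0096 for sgCebpa/b/d and 4.55, adjusted p = 5e-06 for sgLkb1) and, unlike Igfbp7, lower in every sgCebpa/b/d than in every sgLkb1 library (-2.67, SE 0.43, adjusted p = 0.000428). For Stc1 the sgCebpa/b/d call against sgInert was lost in the MT libraries (1.72, adjusted p = 0.0919) and passed in 10 of 17 alternative settings, while the sgLkb1 call passed in all 17.

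The lower calls against sgInert were Irs1, Pik3ca, Insr and Grb14. Irs1, the adaptor that links IGF1R and the insulin receptor to PI3K, fell by 1.21 on the log2 scale in sgCebpa/b/d (SE 0.21, adjusted p = 0.000453, every library below sgInert) and by 0.79 in sgLkb1 (SE 0.23, adjusted p = 0.0406). The sgLkb1 call for Irs1 passed in 7 of 17 alternative settings and was lost without sgLkb1 replicate 2, 3 or 4 or sgInert replicate 1, 2, 5 or 7 (highest adjusted p = 0.117). Pik3ca, the catalytic subunit of PI3K, fell by 0.45 (SE 0.10, adjusted p = 0.00401) and 0.56 (SE 0.11, adjusted p = 0.0031). The test also called, for sgCebpa/b/d, Insr, the insulin receptor (-0.38, SE 0.08, adjusted p = 0.0047), and Grb14, an inhibitory adaptor of that receptor (-0.45, SE 0.13, adjusted p = 0.0278). Neither call held in the MT libraries (adjusted p = 0.0803 and 0.148), and that for Grb14 was also lost without sgCebpa/b/d replicate 4 or 6 or sgInert replicate 6 or 7 (highest adjusted p = 0.0639). Between the targeted groups neither gene passed the test (adjusted p = 0.245 and 0.26). Pik3r1, the regulatory subunit of PI3K, was higher in every sgCebpa/b/d than in every sgLkb1 library in CPM (0.43, SE 0.09, adjusted p = 0.00655), and passed in 12 of 17 alternative settings. Ins1, Ins2, Igfbp1, Igfbpl1, Insrr and Igf2bp1 had 0 counts in all 19 libraries, each of which a count of 0 limits to 3.

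**Figure D5:**
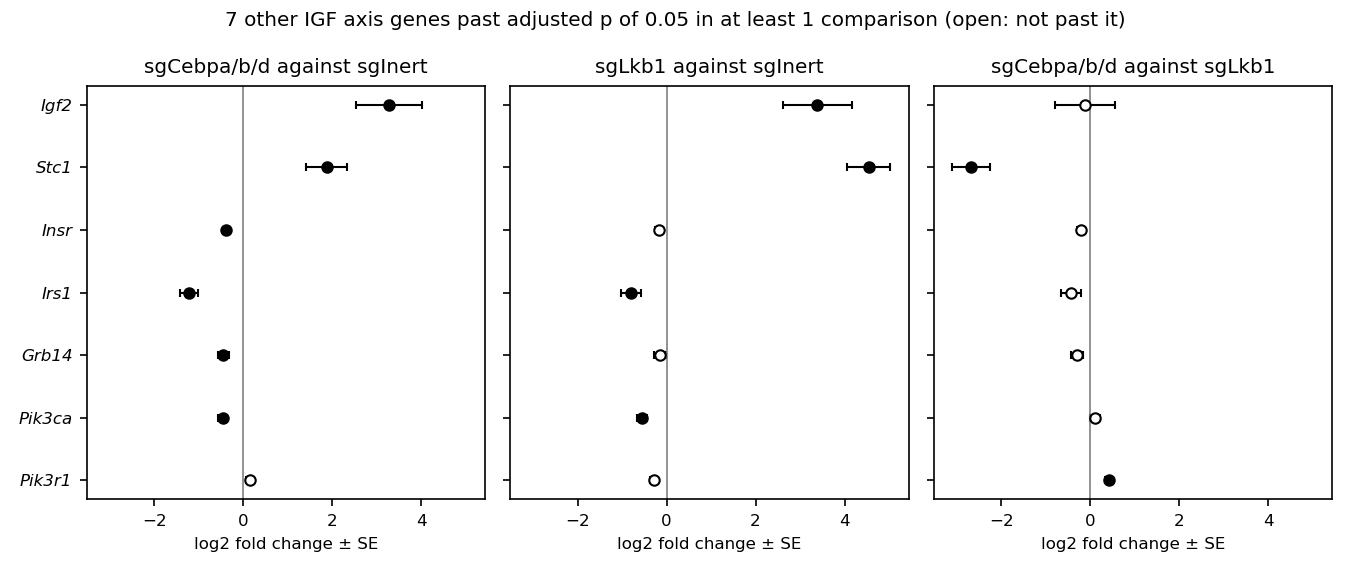
Fitted log2 fold changes (horizontal, with SE) of 7 other IGF axis genes called in at least 1 comparison between virus groups, filled where the adjusted p is below 0.05. Igf2 and Stc1 sit to the right of 0 in both comparisons with sgInert, Irs1 and Pik3ca to the left, and Stc1 at -2.67 between the targeted groups.

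The genes whose log2 CPM followed each called member most closely over the 19 libraries, among 10621 genes with an average log2 CPM above 2, are given as a description, since all points share the same 3 groups. For Igf1 they were the collagens Col1a1 (Pearson r 0.946) and Col5a2 (0.943). Igfbp3 was followed by Fam43a (0.926) and Dpysl2 (0.894), and Igfbp5 by the noncoding host gene Gas5 (0.934) and Gnb4 (0.919). Igfbp7 was followed by Wars, a tryptophanyl-tRNA synthetase (0.944), and Tns1, a focal adhesion protein (0.937).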

How the data were processed

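RNA from sorted cells was made into ribosomal RNA-depleted libraries with the Trio RNA-Seq kit. The authors aligned paired-end reads to mm10 with STAR 2.6.1d and deposited RSEM 1.2.30 gene tables holding expected counts, TPM values and effective lengths. Deposited tables of DESeq2-scaled counts and of the authors' own comparisons (fold changes, p-values) were not used.

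Expected counts were rounded, filtered with filterByExpr (minimum count 10, total 15; 13986 of 53558 genes, 13674 in the MT libraries) and tested in 1 model of 19 libraries without covariates, with TMM scaling and the quasi-likelihood test of edgeR 4.0.16 in R 4.3.3, p-values being two-sided and Benjamini-Hochberg adjusted over all tested genes. SE is the log2 fold change over the square root of F. Log2 CPM used a prior count of 2. TPM levels come straight from the files and carry no TMM scaling. Groups came from the sample labels. No same-group pair of libraries was identical (chi-square per gene 6.91 to 75.2 over 52 pairs). Scripts were tested on simulated counts. The members and lists (34 other axis genes and 7 sets of cell type markers) were chosen with earlier results of these data known, and the TATA motifs after their sequences were seen. Named genes were the members, axis genes called between virus groups or at 0 throughout, the targeted genes, and the 2 genes most correlated with each called member. An allele shared by all libraries and 1 called axis gene, which stays in the counts of its list, are not reported here. Alternatives were DESeq2 1.42.0, limma 3.58.1 (pseudocount 1), no filter, covariates, summed or omitted libraries, a gene-length offset and an added fold threshold (log2 of 1). Molecular identifiers were not used here, so counts and their limits cover counting error only.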

Additional observations from a re-analysis of the deposited data

Results flagged for a closer look

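A gap test was applied to the log2 CPM of each member in each virus group, which made 27 groups of 5 or 7 libraries, and chance flags about 1 such group in 20. It singled out 2 values, both at low counts. Igfbp2 stood at 1.32 in sgCebpa/b/d replicate 7 (13 counts), with the nearest library of its group at -0.59. Igfbp4 stood at 2.95 in sgLkb1 replicate 5 (51 counts), with the nearest at 1.63. Both libraries have unnumbered titles. Neither member passed the test in a comparison between virus groups, Igfbp2 because it was not tested.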

How the results depend on the processing

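Across planned and added settings, 320 of 369 member values kept their direction and side of the threshold (19 weaker, 9 past it, 21 of opposite sign), as did 425 of 456 with 1 library left out (17, 6 and 8); for the other named genes these were 215 of 287 and 305 of 323, the rest weaker. Igfbp5 and Igfbp7 in sgCebpa/b/d against sgInert and Igfbp7 against sgLkb1 passed in 17 of 17 settings and without each of the 19 libraries. In sgCebpa/b/d against sgInert Igfbp3 passed in 14 of 17, missing it with title series (1.48, adjusted p = 0.0545), with females only (0.91, adjusted p = 0.0838) and with the fibroblast sum, and Igf1 (3.95, adjusted p = 0.00172) and Igf1r (1.22, adjusted p = 0.0391) passed with title series. In sgLkb1 against sgInert Igfbp3 passed in 14, Igfbp5 in 13 and Igf1 in 9 of 17, and Igfbp3 missed it with title series (1.41, adjusted p = 0.0789). Where no value given here shows the cause of a change, the cause was not tested.

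Members called changed to 2 in sgCebpa/b/d against sgLkb1 with those groups fitted alone and with the endothelial sum, and to 2 in its MT libraries with DESeq2. In 1 of the first 2 settings the added member was Igfbp5, higher in sgCebpa/b/d (edgeR adjusted p = 0.0466). In the other it was Igf2r, lower in sgCebpa/b/d (edgeR adjusted p = 0.0491). In sgLkb1 against sgInert they changed to 1 without unnumbered libraries, 1 with libraries of an animal and of the unnumbered titles summed, and 0 with the fibroblast or endothelial sum. For unnumbered against MT they were 2 without a filter and 0 with sex, and for ZR against MT 1 with sex. Without 1 library, members called ran from 3 to 4 (sgCebpa/b/d against sgInert), 2 to 3 (sgLkb1 against sgInert), 0 to 1 (unnumbered against MT) and 1 to 3 (ZR against MT).

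All genes called numbered 1412, 809 and 833 for sgCebpa/b/d against sgInert, sgLkb1 against sgInert and sgCebpa/b/d against sgLkb1. With sex the second was 1258; with title series the first was 926 and with females only 703. With an animal's libraries summed the latter 2 were 532 and 466, and with unnumbered titles summed too all 3 were 482, 300 and 155. A log2 fold above 1 left 650, 421 and 391, dropping unnumbered libraries 881, 525 and 455, the fibroblast sum 418 and 206 (first, second) and the endothelial sum 901 and 490. Without 1 library they ran from 1182 to 1469, 543 to 875 and 577 to 879.

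Signs turned as follows, always for values that had missed or then missed the threshold. Igfbp3 between the targeted groups was -0.0878 with limma, -0.0237 with sex, -0.51 in MT libraries, -0.70 in females and -0.51 without unnumbered libraries. Igfbp4 there was 0.46 in MT libraries, 0.47 without unnumbered libraries and 0.0376 with the fibroblast sum, and ran from -0.31 to 0.41 without 1 library. Igf1r in sgLkb1 against sgInert was -0.0031 with gene lengths, -0.0394 with the replicate block, -0.0478 and -0.11 with summed libraries and -0.62 with the fibroblast sum, and ran from -0.10 to 0.21 without 1 library. Igf2r in sgCebpa/b/d against sgInert was 0.10 with title series, 0.14 in MT libraries and 0.0475 with the endothelial sum. With the fibroblast sum Igf1 was -0.25 and Igfbp4 -0.0671 in sgCebpa/b/d, and Igf1 -0.14, Igfbp4 -0.10 and Igfbp7 -0.32 in sgLkb1, against sgInert.

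Replicate numbers did not pair the libraries: over 17 same-numbered pairs r ran from -0.147 to 0.232, 2 were above 0.1, and 3 of 19 libraries correlated best with their own number. With a replicate block 1293, 873 and 661 genes were called, with 3, 2 and 1 members, Igf1 in sgLkb1 being lost (2.599, adjusted p = 0.0548).

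Depth limits Igfbp2, Igfbp4 and Igfbp6. Sex, title series and virus group are partly bound together: sgLkb1 has no male and no ZR library, sgCebpa/b/d no ZR library and sgInert no unnumbered one, so that their shares of a difference cannot be told apart across all libraries. Within sgCebpa/b/d the unnumbered libraries were the males and the MT libraries the females. Several libraries of 1 group came from 1 animal.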
